A study of Mus musculus with 8 samples.

Results

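Mouse embryonic stem cells that already lacked the histone demethylase Jmjd1a were compared with cells of the same origin in which Jmjd1b had been deleted as well. The comparison took 4 of the 8 arrays of the study, chosen by their sample titles: 2 of Jmjd1a-KO cells (genotype Jmjd1a delta/delta; Jmjd1b +/+) and 2 of double-KO cells (genotype Jmjd1a delta/delta; Jmjd1b delta/delta). It asks how the transcriptome differs when the second enzyme is lost in cells without the first. The other 4 arrays, 2 of WT cells (Jmjd1a +/+; Jmjd1b +/+) and 2 of Jmjd1b-KO cells (Jmjd1a +/+; Jmjd1b delta/delta), served to compare the same deletion in cells that kept Jmjd1a. All cells were grown with leukaemia inhibitory factor, the cytokine that keeps mouse embryonic stem cells undifferentiated. A conditional Jmjd1b allele was placed in the Jmjd1a-deficient line 31-1, and the resulting lines #117 and #131 received MerCreMer, a Cre recombinase that moves into the nucleus when 4-hydroxytamoxifen (OHT) binds it. The protocol text of all 8 samples names culture with 800 nM OHT. By their labels WT and Jmjd1b-KO cells came from mice, where the other groups are named as a cell line. The protocol text does not separate treated from untreated groups, and the promoter of the Cre plasmid was not given. The sample titles name the 2 arrays of each group biological replicates 1 and 2. The labels do not say which replicate came from which line, so p-values measure the spread between these arrays, which may be partly technical.

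Jmjd1a and Jmjd1b (gene symbols Kdm3a and Kdm3b) are related enzymes that remove mono- and dimethyl groups from lysine 9 of histone H3. That mark is laid down by G9a and GLP and is associated with silent genes. In embryonic stem cells the same repressive system, together with DNA methylation and a variant Polycomb complex built around Mga and E2f6, keeps many genes of the germ line off. Of this system the demethylases act against the H3K9 methyl mark.

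Each array value is the log2 of a probe set's signal, so a difference of 1 is a 2-fold difference. Only probe sets whose values spanned at least 0.01 over the 8 arrays were used, which left 11502 of 45101 probe sets (25.5%). Through them 7181 genes were measured, each by the varying probe set that was brightest on average, of 18194 genes with a probe set of their own. A gene said below not to vary had no probe set of its own with that span. The processing behind such flat values is not given, so flatness does not show whether a gene is expressed. Dnmt1 and Ezh2 did not vary either. Shares over all genes measured are shares of the 7181. A gene was called when its adjusted p was under 0.05 in limma's moderated test on the 4 arrays. In bulk RNA, fewer cells that express a gene cannot be told apart from less RNA per cell. The median of the array medians was 6.81, which marks the middle of the signal range. Where 2 pairs of values stand side by side, the first pair is Jmjd1a-KO replicates 1 and 2 and the second is double-KO replicates 1 and 2.

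Replicate arrays differed more in these groups than in the other 2. The SD over genes of replicate 1 minus replicate 2 was 0.342 in Jmjd1a-KO and 0.293 in double-KO, against 0.151 in WT and 0.116 in Jmjd1b-KO. Genes of the Y chromosome split both groups by replicate number. Eif2s3y, a translation factor gene on the Y, read 11.72 and 3.19 in Jmjd1a-KO replicates 1 and 2 and 12.17 and 3.73 in double-KO replicates 1 and 2, and Uty read 8.97 and 3.96 against 9.49 and 4.06. In each group replicate 1 was high and replicate 2 low. Kdm5d and Uba1y split the same way, the latter at 7.11 and 4.89 against 10.24 and 5.04. The groups overlapped in all 4 of these genes, the median difference of the 4 was 0.59, and 0 of the 4 were called. WT read 7.62 and 7.66 and Jmjd1b-KO 9.14 and 11.66 for Eif2s3y. The main test took no account of replicate number. With that number as a block over the 4 arrays, 0 genes were called.

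The cells carried the markers of their label in all 4 arrays. All 11 stem cell markers (among them Pou5f1, Sox2 and Nanog) were measured, 0 were called, and their mean level was 11.84 and 12.01 in Jmjd1a-KO and 11.42 and 11.94 in double-KO. That mean includes Esrrb, which differed by -2.52 without being called, with double-KO replicates far apart, as given below. Of 10 fibroblast markers, 4 did not vary across the 8 arrays (Lum, Dcn, Prrx1 and S100a4). The other 6 had a mean of 7.40 and 7.20 in Jmjd1a-KO and 7.03 and 7.02 in double-KO, with Col1a1 and Col1a2 called lower. The defining trophoblast genes Cdx2, Gata3, Elf5 and Hand1 did not vary, at values between 6.246 (Gata3, below the lower quartile of the arrays) and 7.013 (Hand1), and of the other 2 markers, Eomes and Krt7, 0 were called. Of 5 mesoderm markers 4 did not vary and 1 had no probe set. Primitive endoderm markers (3 of 6 measured, 0 called) had a mean of 6.86 and 6.74 in Jmjd1a-KO and 7.38 and 6.99 in double-KO. Neural markers (6 of 6 measured, 0 called) had a mean of 7.86 and 8.81 against 7.82 and 7.61.

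The deleted gene was low where the labels say so. Kdm3b read 9.95 and 9.80 in Jmjd1a-KO and 7.06 and 7.66 in double-KO, and it fell by 2.52 ± 0.24 (SE, n = 2 arrays a group, adjusted p = 0.0339). The WT arrays had a mean of 9.93 and the Jmjd1b-KO arrays of 7.08, so the double-KO arrays were near the level of the single deletion. Kdm3a was low in both groups, at 5.08 and 4.87 against 4.60 and 4.77, against a WT mean of 12.78. Its difference of -0.29 ± 0.12 between them was not called (adjusted p = 0.209). Jmjd1c, the third member of this enzyme family, read 11.15 and 11.05 against 10.24 and 10.49, with a difference of -0.73 ± 0.12 that was not called (adjusted p = 0.0588).

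Deleting Jmjd1b in Jmjd1a-deficient cells was accompanied by 401 called genes (5.58% of those measured). Of these 275 rose (3.83%) and 126 fell (1.75%), so 68.6% of the calls were rises. That share was 58.2% after quantile normalization and 56.3% after centring each array on its median. The median difference over all 7181 genes was 0.02, with 3889 positive and 3292 negative differences. At an unadjusted p under 0.05 in the same test, 1305 genes were higher and 868 lower. Among the called genes the median rise was 1.00, the median fall was -0.99, and 138 rises and 62 falls were at least 2-fold. Of genes with more than 1 varying probe set, 79 of 80 rises and 44 of 46 falls had the same sign in all of them. Taking out any 1 of the 4 arrays left 0 genes past the threshold in this small fit, with 1167 to 1980 at an unadjusted p under 0.05. A fit of all 8 arrays called 2155 genes (30%), 1297 higher (18.1%) and 858 lower (11.9%), and held 400 of the 401. It shares 1 error over the 4 groups, and the other 2 groups had closer replicates. That error may be too small here, and the calls of this fit, also those given by list below, too many. The group differences are the same in both fits, so holding the 401 adds little support. With any 1 array left out of that fit, 388 to 400 of the 401 stayed called.

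Called genes were spread over the genome. Leaving out the Y, with 4 genes, the median difference by chromosome ran from -0.01 on chromosome 5 to 0.08 on the X, and the share called from 3.39% on chromosome 9 to 9.3% on chromosome 13, where 20 genes rose and 4 fell. On the X, 14 of 264 rose and 5 fell.

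The largest rises joined interferon-inducible genes and genes otherwise known from the germ line. Gbp2, a guanylate-binding GTPase of cell-autonomous immunity, read 5.55 and 6.06 in Jmjd1a-KO and 11.03 and 10.44 in double-KO, a rise of 4.93 ± 0.29 (SE, adjusted p = 0.026). Usp17la, a deubiquitinase of a multi-copy family, read 5.99 and 5.93 against 10.18 and 10.19 and rose by 4.22 ± 0.07 (adjusted p = 0.00617). Its near-identical copies may share the probe signal. Irf1, the transcription factor that drives many interferon-gamma targets, read 8.79 and 8.74 against 12.37 and 12.38 and rose by 3.61 ± 0.07 (adjusted p = 0.00617). The replicates of Usp17la and Irf1 lay within 0.1 of each other in both groups, and these were the 2 genes that also passed an adjusted p of 0.01.

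The other 9 of the 12 largest rises were between 2.78 and 3.42. Rpl39l, a ribosomal protein paralog known from the testis, read 8.49 and 8.01 against 11.89 and 11.44. Tex19.1, which restrains retrotransposons in germ cells and placenta, read 7.39 and 7.88 against 10.99 and 10.78. Nmi, an interferon-inducible partner of Myc and STAT proteins, read 6.92 and 6.52 against 10.15 and 9.60. In each of these, both double-KO arrays lay well above both Jmjd1a-KO arrays. Rpl39l, Tex19.1 and Nmi were lower in Jmjd1a-KO than in WT, whose means were 10.35, 9.15 and 7.88. The double-KO arrays were above these means too. Cox7b2, a testis form of a cytochrome c oxidase subunit, rose by 3.12 ± 0.28, and Irgm1, an immunity-related GTPase, by 3.08 ± 0.44. Fgf5, the growth factor that marks the primed epiblast, rose from 5.69 and 6.25 to 9.22 and 8.46. Dazl, an RNA-binding protein of germ cells, rose from 6.88 and 6.71 to 9.60 and 9.55. Ptpn13, a tyrosine phosphatase, rose by 2.80 ± 0.34. Vwa5a rose by 3.10 ± 0.21 on 1 probe set, while its other probe set differed by 0.07. Cox7b2 and Vwa5a had WT means of 5.495 and 7.26, below both of their Jmjd1a-KO arrays.

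The largest fall was that of Pcolce, an extracellular protein that enhances procollagen processing, from 10.13 and 10.42 to 5.20 and 6.16, a difference of -4.60 ± 0.37 (adjusted p = 0.0291). Plac8 followed, from 9.01 and 9.56 to 5.95 and 6.09, and then Phlda2, an imprinted restrainer of placental growth, from 9.34 and 9.89 to 6.44 and 6.90. Both Plac8 and Phlda2 were already lower in Jmjd1a-KO than in WT, whose means were 12.08 and 11.72. Ccnd1, the cyclin that drives progress through G1, read 9.33 and 10.31 against 6.95 and 7.14, a difference of -2.77 ± 0.37. Ifitm3, a membrane protein that blocks viral entry, fell from 11.63 and 11.79 to 8.52 and 9.51. Plekha4 differed by -2.80 ± 0.27, with -0.50 on its other probe set, Eprn, a noncoding RNA, by -2.34 ± 0.24, and Ddc, the aromatic amino acid decarboxylase, by -2.26 ± 0.24. Gtsf1l, Ak7 and Car14, a carbonic anhydrase, differed by -1.91, -1.89 and -1.85. Kdm3b, given above, was also among the 12 largest falls. Genes whose groups overlapped could not enter either set of 12. Over all genes measured, 35% had both double-KO arrays above both Jmjd1a-KO arrays and 28.1% had both below.

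**Figure D1:**
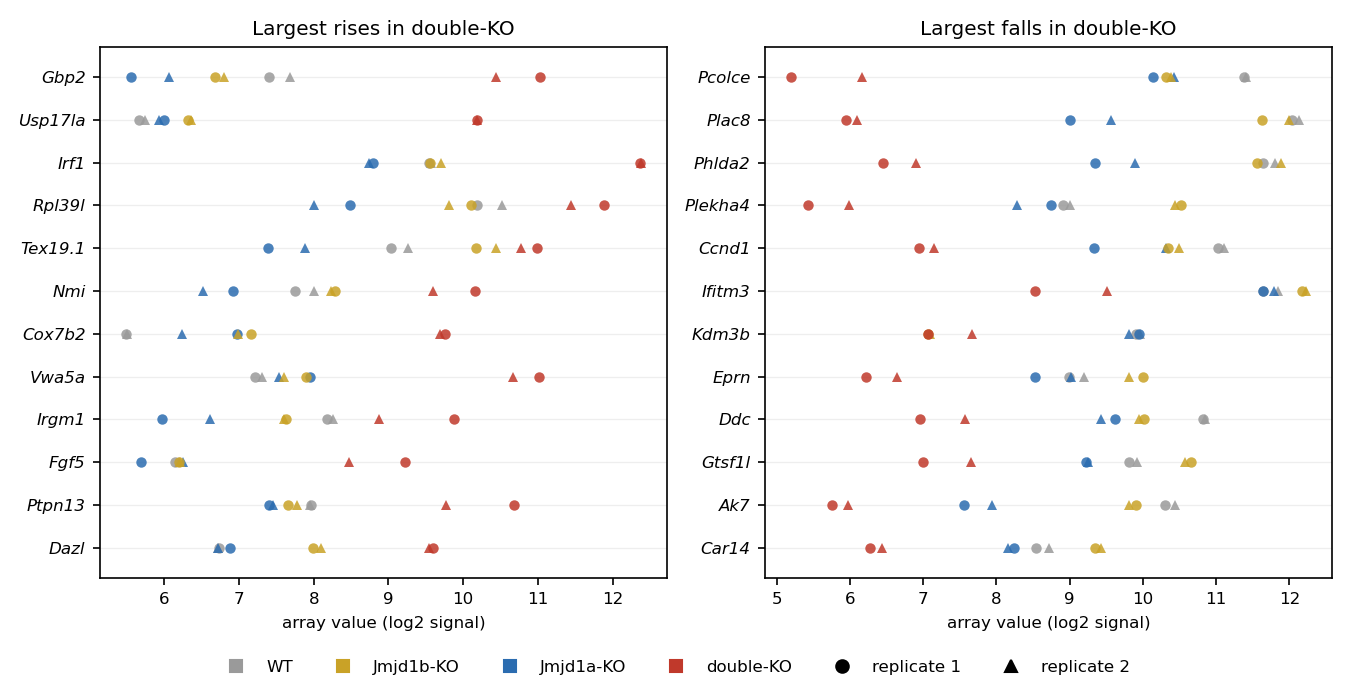
Array values (log2 signal, x axis) of the 12 genes with the largest called rise (left) and the 12 with the largest called fall (right) in double-KO against Jmjd1a-KO. Each point is 1 array, colours are the 4 groups and shapes the replicates. The rows were chosen among called genes whose groups did not overlap, so red double-KO and blue Jmjd1a-KO points are apart by choice, as for Gbp2 at 11.03 and 10.44 in double-KO and 5.55 and 6.06 in Jmjd1a-KO.

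Interferon and antigen presentation genes moved in both directions. Of 48 listed genes 24 were measured, 8 rose, 1 fell, and the median difference was 0.37 against 0.02 over all genes. In the fit of 8 arrays 13 were higher and 3 lower. Beyond Gbp2, Irf1 and Irgm1, the rises were in GTPases, in the antiviral gene Oasl2 and in the supply of peptides to MHC class I. Gbp3 read 5.61 and 5.75 in Jmjd1a-KO and 8.25 and 7.82 in double-KO, a rise of 2.35 ± 0.18 (adjusted p = 0.0287). Tapbp, which tethers MHC class I to the peptide transporter, read 8.37 and 8.52 against 10.90 and 10.57, a rise of 2.29 ± 0.15. Oasl2 read 5.96 and 5.97 against 8.31 and 8.10. Psmb8, a subunit of the immunoproteasome, read 6.52 and 6.75 against 8.49 and 8.48, and Igtp, another immunity-related GTPase, 7.36 and 7.30 against 9.14 and 9.001. The double-KO arrays were above both Jmjd1a-KO arrays in all 5, which being called nearly ensures, and in 35% of all genes measured.

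The 3 Ifitm genes of the list were lower. Ifitm3 was the fall called. Ifitm1 read 12.19 and 12.04 against 10.11 and 10.86 and Ifitm2 11.35 and 11.17 against 10.16 and 10.85, differences of -1.63 ± 0.29 and -0.76 ± 0.27 that were not called (adjusted p = 0.0611 and 0.163).

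Several of the Jmjd1a-KO values were below those of WT. Gbp2 had a WT mean of 7.54 and Irgm1 of 8.22, and the double-KO arrays were above these too. Tapbp, with a WT mean of 8.50, and Igtp, with 7.24, were near WT in the Jmjd1a-KO arrays.

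Promoter sequences of 6 interferon genes are shown with their motif matches. They were chosen because the genes rose and hold a match. The windows run upstream of the start of transcription as RefSeq places it on GRCm38.p6, are printed 5′ to 3′, and capitals mark matches to the interferon-stimulated response element, taken as GAAA, any 2 bases and GAAA again, on either strand (TTTC on the other). In Gbp3 and Irgm1 the capitals span 2 overlapping matches.

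Gbp2, chr3:142620574-142620643, plus strand: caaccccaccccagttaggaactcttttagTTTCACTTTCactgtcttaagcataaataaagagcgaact
Gbp3, chr3:142559969-142560038, plus strand: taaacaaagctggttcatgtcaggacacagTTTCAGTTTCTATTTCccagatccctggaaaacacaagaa
Igtp, chr11:58199492-58199555, plus strand: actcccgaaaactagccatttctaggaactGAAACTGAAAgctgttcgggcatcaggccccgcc
Irgm1, chr11:48871421-48871480, minus strand: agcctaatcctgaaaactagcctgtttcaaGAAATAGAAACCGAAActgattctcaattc

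For Irf1 and Psmb8 the capitals mark the gamma-activated site, TTCNNNGAA, which reads the same on both strands.

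Irf1, chr11:53769894-53769962, plus strand: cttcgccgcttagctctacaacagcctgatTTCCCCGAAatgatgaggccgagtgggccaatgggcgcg
Psmb8, chr17:34198068-34198136, plus strand: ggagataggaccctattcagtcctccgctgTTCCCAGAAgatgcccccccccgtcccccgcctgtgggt

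Over windows of 300 bases (250 before to 50 after the start), the interferon-stimulated response element was found in 5 of the 9 called interferon genes (55.6%), one of them Ifitm3, which fell. It was found in 11 of 22 measured members with a promoter sequence (50%), in 3.54% of the 5825 measured genes with one and in 3.44% of all windows. TTCNNNGAA was found in 4 of the 9 (44.4%), one of them again Ifitm3, in 7 of 22 measured members (31.8%), in 7.69% of measured genes and in 8.3% of all windows. These motifs were chosen after the called genes had been seen. A match is a string of letters and no evidence of binding.

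Germline genes had positive differences almost throughout. Of 37 listed genes 23 were measured, 22 of them had a positive difference, 7 rose, 0 fell, and the median was 0.72. Over all genes 3889 of 7181 differences were positive and 3.83% rose. In the fit of 8 arrays 15 were higher and 1 lower. Slc25a31, the ADP/ATP carrier of spermatogenic cells, read 5.71 and 5.89 in Jmjd1a-KO and 8.26 and 8.40 in double-KO, a rise of 2.53 ± 0.11 (adjusted p = 0.026). Mael, a component of the piRNA pathway, read 6.49 and 6.88 against 9.08 and 9.27, a rise of 2.49 ± 0.17. Stk31, a Tudor domain protein of germ cells, read 6.51 and 6.34 against 8.17 and 8.07. In these 3 genes each double-KO array was more than 1 unit above each Jmjd1a-KO array. Ddx4, the helicase that marks germ cells, read 7.51 and 7.57 against 9.07 and 8.85. The synaptonemal complex genes Sycp1 and Sycp3 read 6.02 and 6.29 against 7.57 and 7.39 and 7.70 and 7.78 against 8.60 and 8.87.

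Stra8, the retinoic acid-induced gene of meiotic entry, was the list's exception. It read 8.68 and 8.71 in Jmjd1a-KO and 6.03 and 7.20 in double-KO, a difference of -2.08 ± 0.43 that was not called (adjusted p = 0.0751), and its WT mean was 11.40. Stag3, the meiotic cohesin subunit, differed by 1.72 ± 0.35 and was not called (adjusted p = 0.0729).

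The promoters of the called germline genes are given for the E-box CACGTG, which Mga with Max and other basic helix-loop-helix proteins can bind and which reads the same on both strands. Capitals mark it.

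Ddx4, chr13:112652311-112652369, minus strand: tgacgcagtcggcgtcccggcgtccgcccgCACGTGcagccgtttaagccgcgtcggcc
Mael, chr1:166238932-166238994, minus strand: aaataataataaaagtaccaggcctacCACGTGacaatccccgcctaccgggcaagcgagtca
Slc25a31, chr3:40708748-40708813, plus strand: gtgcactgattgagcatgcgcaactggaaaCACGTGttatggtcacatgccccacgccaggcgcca
Stk31, chr6:49395454-49395519, plus strand: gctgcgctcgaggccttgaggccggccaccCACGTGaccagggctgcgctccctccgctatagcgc
Sycp1, chr3:102936159-102936224, minus strand: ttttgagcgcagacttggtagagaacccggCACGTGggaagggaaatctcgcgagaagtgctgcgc
Sycp3, chr10:88459493-88459558, plus strand: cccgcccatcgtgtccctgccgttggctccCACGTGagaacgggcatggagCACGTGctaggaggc

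CACGTG was found in the 300-base windows of 6 of the 7 called germline genes (85.7%). It was found in 11 of 20 measured members with a promoter sequence (55%), in 12.6% of measured genes and in 7.15% of all windows. The E2F site TTCCCGCC, either strand, was found in Ddx4 and Slc25a31 (28.6% of the 7, against 4.89% of measured genes). Both motifs were chosen after the called genes had been seen, and a match is no evidence of binding.

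**Figure D2:**
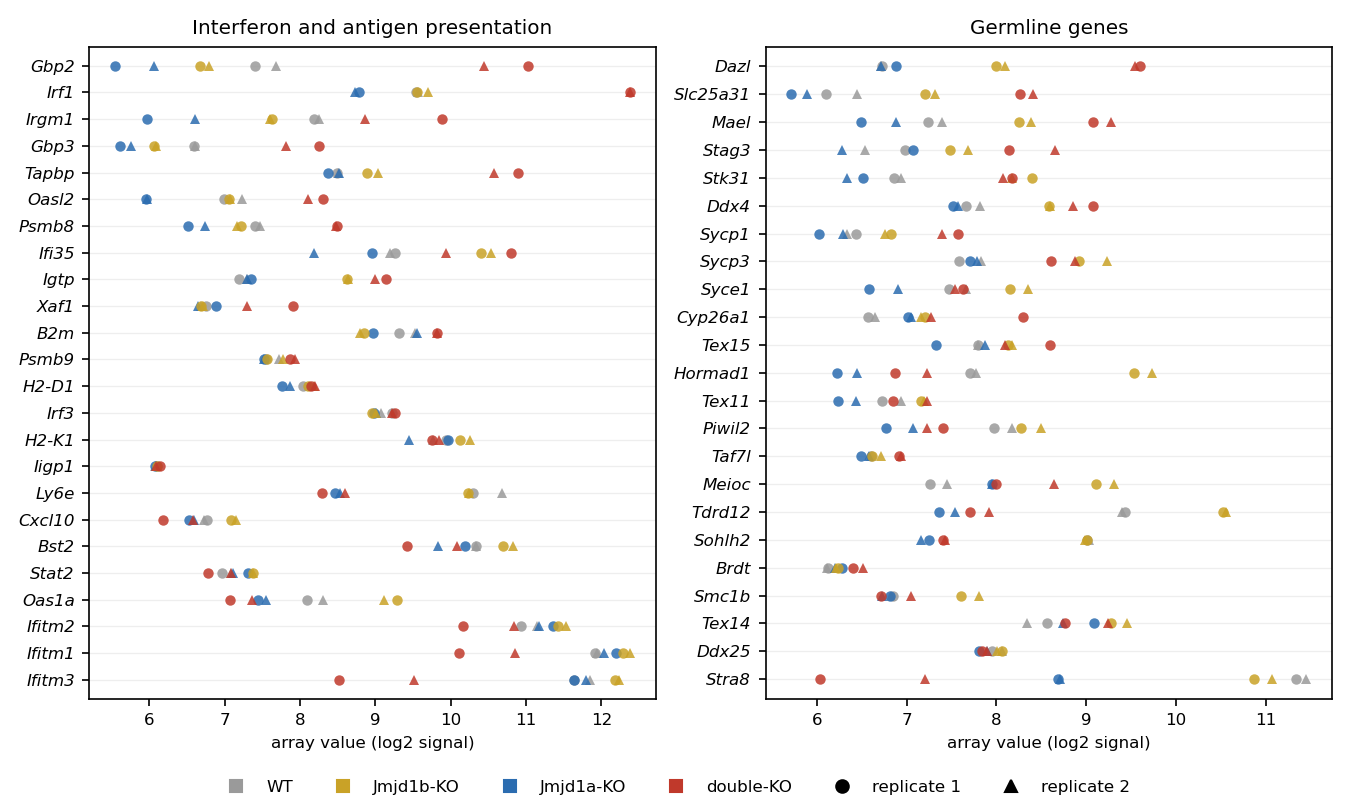
Array values (log2 signal, x axis) of all measured interferon and antigen presentation genes (left, 24 genes) and germline genes (right, 23 genes), ordered by the difference between double-KO and Jmjd1a-KO. Each point is 1 array. The upper rows show the red double-KO points to the right of the blue Jmjd1a-KO points, and the bottom rows, Ifitm3 and Stra8, show the reverse.

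Genes of the 2-cell-like state, a rare state of cultured stem cells resembling the embryo after its first division, were measured for 6 of 28 listed genes, since 15 had no probe set of their own and 7 did not vary. All 6 had a positive difference, as did 3889 of all 7181 genes, and 3 rose. Besides Usp17la these were Tcstv1, from 6.08 and 5.97 to 7.62 and 7.48, and the zinc finger gene Zfp352, from 6.29 and 6.37 to 7.12 and 7.05. Of 121 measured genes named Zfp, 6 rose and 0 fell, which is near the 3.83% and 1.75% of all genes. Among X-linked reproductive genes and the testis genes listed with them, 7 were measured, 1 rose (Cox7b2) and 0 fell. The homeobox gene Rhox5 read 9.75 and 9.49 against 8.46 and 8.73 and was not called (adjusted p = 0.0504).

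Genes of cholesterol and fatty acid synthesis mostly had negative differences. Of 29 measured genes 6 fell and 0 rose, with a median of -0.845, and in the fit of 8 arrays 19 were lower and 1 higher. Scd2, the desaturase that makes monounsaturated fatty acids, read 12.90 and 12.99 in Jmjd1a-KO and 11.48 and 11.76 in double-KO, a difference of -1.32 ± 0.13 (adjusted p = 0.0349). Fasn, the fatty acid synthase, read 11.54 and 11.70 against 10.50 and 10.48, and Acaca, which makes its substrate malonyl-CoA, read 9.59 and 9.68 against 9.02 and 9.06. Both enzymes fell, Fasn by 1.13 ± 0.09 and Acaca by 0.59 ± 0.08. In the sterol branch, Pmvk read 9.84 and 9.94 against 8.72 and 8.91, Idi1 11.20 and 11.26 against 10.21 and 10.33, and Sc5d 9.23 and 9.40 against 8.35 and 8.09. Pmvk and Idi1 act at early steps of the pathway from mevalonate to cholesterol and Sc5d at a late one. The double-KO arrays lay below both Jmjd1a-KO arrays in each, which being called nearly ensures, and in 28.1% of all genes measured. Hmgcs1 and Sqle differed by -0.84 ± 0.13 and -0.92 ± 0.16 without being called (adjusted p = 0.0504 and 0.061). Of the transcription factors that drive the pathway, Srebf1 differed by -0.07 ± 0.09 and Srebf2 by 0.14 ± 0.11, and neither was called (adjusted p = 0.623 and 0.456). The sterol element TCACNCCAC was in 0 of 5 called members with a promoter sequence.

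Genes of the integrated stress response, through which the factor Atf4 raises amino acid supply, mostly had negative differences. Of 30 measured genes 29 had a negative difference, 3 fell, 0 rose, and the median was -0.705. Over all genes 3292 of 7181 differences were negative and 1.75% fell. In the fit of 8 arrays 20 were lower and 0 higher. Psat1 and Psph, consecutive enzymes of serine synthesis, read 11.85 and 11.75 against 10.12 and 10.64 for Psat1 and 10.21 and 10.35 against 9.15 and 9.44 for Psph. Herpud1, a protein of endoplasmic reticulum degradation, read 8.55 and 8.44 against 7.05 and 7.44. These were the 3 called falls, of -1.42 ± 0.21, -0.98 ± 0.14 and -1.25 ± 0.16 (adjusted p = 0.0499, 0.0472 and 0.0428). Differences of -2.53 in Mthfd2 and -2.20 in Chac1 were larger than these and missed the threshold. Mthfd2, the mitochondrial folate enzyme, read 10.85 and 11.04 against 7.92 and 8.91 (adjusted p = 0.0504), and Chac1 8.74 and 8.57 against 5.86 and 7.07 (adjusted p = 0.0734). Atf4 itself read 11.79 and 11.80 against 10.53 and 11.09, a difference of -0.99 ± 0.21 that was not called (adjusted p = 0.0803). In Mthfd2 and Chac1 the double-KO replicates lay about 1 unit apart. The Atf4 element TGATGNAAT was in 0 of the 3 called members and in 2 of 26 measured members with a promoter sequence (7.69%), against 0.395% of measured genes.

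Genes of tRNA charging and protein folding also had mostly negative differences. Of 19 measured aminoacyl-tRNA synthetase genes 1 fell (Nars, 11.39 and 11.28 against 10.46 and 10.65), 0 rose, and the median was -0.45, with 12 lower and 1 higher in the fit of 8 arrays. Of 24 genes of the unfolded protein response and chaperones all had a negative difference, as did 3292 of all 7181 genes, and 1 fell. This was Xbp1, the factor that expands the secretory pathway, at 11.23 and 11.24 against 10.05 and 9.99, a difference of -1.21 ± 0.07 (adjusted p = 0.026). The fit of 8 arrays called 12 of the 24 lower. Of 36 ribosome biogenesis genes 0 were called either way, with a median of -0.08. At an unadjusted p under 0.05, 0 were higher and 2 lower, and in the fit of 8 arrays 0 were higher and 4 lower.

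**Figure D3:**
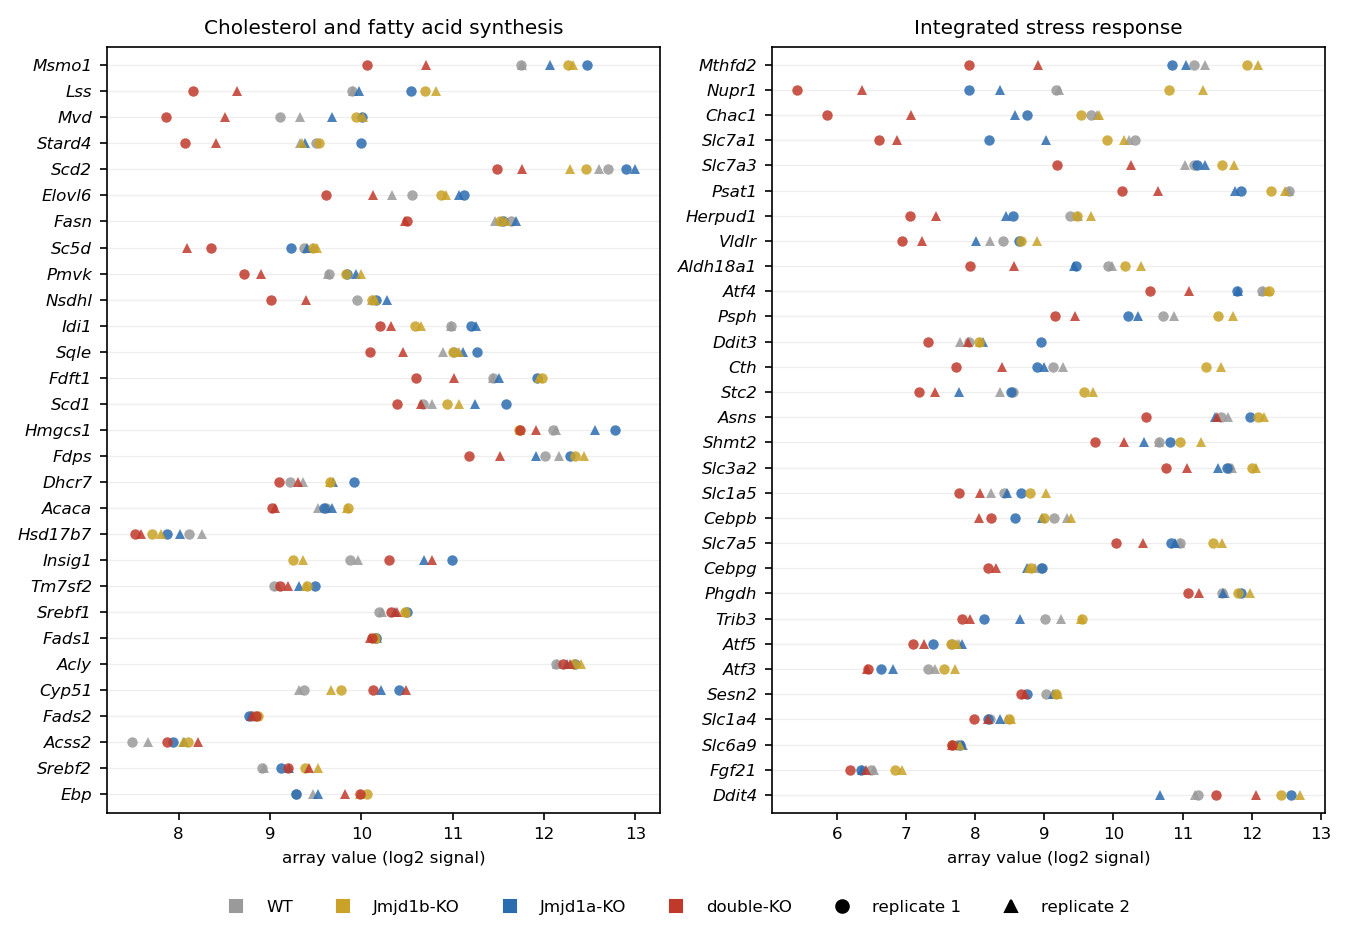
Array values (log2 signal, x axis) of all measured genes of cholesterol and fatty acid synthesis (left, 29 genes) and of the integrated stress response (right, 30 genes), ordered by the difference between double-KO and Jmjd1a-KO. Each point is 1 array. Both red double-KO points lie left of both blue Jmjd1a-KO points in 21 of the 29 rows on the left and in 27 of the 30 on the right. Over all genes measured the share was 28.1%.

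Epithelial genes included large rises. Of 20 measured junction and keratin genes 4 rose and 0 fell, with a median of 0.165 and a range from -1.17 to 2.37. In the fit of 8 arrays 6 were higher and 3 lower. The keratins of simple epithelia read 7.44 and 8.18 against 10.38 and 9.98 for Krt8, 7.70 and 7.80 against 9.64 and 9.74 for Krt18 and 7.31 and 6.82 against 8.95 and 8.86 for Krt19. Dsp, which anchors keratin filaments at desmosomes, read 8.89 and 8.20 against 11.13 and 10.58, a rise of 2.31 ± 0.33 (adjusted p = 0.0483). The same keratins stand in the trophoblast list, where 4 of 11 measured genes rose and 0 fell. The list's other called member was Tfap2c, a factor of placental and early germ cell development, at 10.80 and 10.68 against 12.14 and 12.17. The Jmjd1a-KO arrays were already above the WT mean of 8.26. Cdx2, Gata3, Elf5 and Hand1 did not vary.

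Of 23 measured genes of the G1 phase 4 rose and 2 fell, with a median of -0.08, and in the fit of 8 arrays 5 were higher and 7 lower. The called falls were 2 cyclins: Ccnd1, given above, and Ccne1, which drives entry into S phase, at 10.72 and 11.12 against 9.56 and 9.74. The difference of Ccne1 was -1.27 ± 0.17, and -0.49 on its other probe set. The 4 called rises were in genes known as inhibitors of the cycle, and a split by role was not tested. Cdkn2a, whose locus encodes p16 and p19ARF, read 7.55 and 7.63 against 9.27 and 9.38, a rise of 1.74 ± 0.09 (adjusted p = 0.026). Rbl1, the retinoblastoma relative p107, rose by 1.01 ± 0.08, with 0.38 on its other probe set, Cdkn2b (p15) by 0.74 ± 0.09 and Cdkn1b (p27) by 0.65 ± 0.08. In each of these 4 the double-KO arrays lay above both Jmjd1a-KO arrays, which being called nearly ensures, and in 35% of all genes measured. Of 35 genes of replication and mitosis 1 fell and 0 rose. This was Rrm2, a subunit of ribonucleotide reductase, at 12.67 and 12.88 against 11.54 and 11.76. Of 19 p53 targets 2 fell, Ccng1 at 11.57 and 11.55 against 10.66 and 10.64 and Zmat3 at 10.36 and 10.47 against 9.71 and 9.83, and 0 rose. Among 16 Bcl2 family and caspase genes 0 were called, with 2 higher and 0 lower at an unadjusted p under 0.05 and 1 higher and 0 lower in the fit of 8 arrays.

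The core pluripotency genes did not pass the test in either direction. Of 16 measured, 0 were called by limma, 1 was higher and 0 lower at an unadjusted p under 0.05 and in the fit of 8 arrays alike, and the median was -0.01. Pou5f1 read 12.39 and 12.49 against 12.07 and 12.57, and Sox2 12.85 and 12.66 against 12.79 and 12.91. Nanog, at 10.99 and 11.40 against 11.60 and 12.09, differed by 0.65 ± 0.24 (adjusted p = 0.176). Among 17 naive pluripotency genes 2 rose and 0 fell, while 10 had a negative difference, the median was -0.11, and 3 were higher and 4 lower in the fit of 8 arrays. Klf2, a factor of the naive state, read 10.85 and 10.69 against 12.49 and 12.74, a rise of 1.85 ± 0.13 (adjusted p = 0.0267), and Il6st, the shared receptor subunit of the leukaemia inhibitory factor family, rose by 0.62 ± 0.08. Esrrb, another naive factor, read 11.13 and 11.19 in Jmjd1a-KO but 7.68 and 9.58 in double-KO, whose replicates were far apart, and its difference of -2.52 ± 0.69 was not called (adjusted p = 0.111). Of 15 genes of the formative and primed epiblast, Fgf5 was the 1 called. Otx2 read 9.40 and 8.79 against 10.38 and 11.21, a difference of 1.70 ± 0.38 that was not called (adjusted p = 0.0833).

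Among chromatin and DNA methylation genes 0 or 1 gene was called per list. For lists of this size that is near the 5.58% called over all genes. Of 13 H3K9 methylation enzymes and readers only Kdm3b passed, 9 had a negative difference, and the fit of 8 arrays called 0 higher and 5 lower. Of 13 DNA methylation genes 0 were called, while 1 was higher and 3 lower both at an unadjusted p under 0.05 and in the fit of 8 arrays. The methyltransferase Dnmt3a read 10.34 and 11.02 against 8.15 and 8.81 (adjusted p = 0.0557), and the 5-methylcytosine oxidase Tet1 read 11.80 and 11.98 against 10.05 and 10.71 (adjusted p = 0.0605). Both had groups that did not overlap, as 28.1% of all genes measured did in this direction. Their differences were -2.19 ± 0.35 and -1.51 ± 0.26, though the 5 probe sets of Dnmt3a ranged from -2.19 to -0.05. Of 13 Polycomb genes 1 rose, Rnf2, the E3 ligase of PRC1, by 0.62 ± 0.08. Of 26 imprinted genes 1 fell, Phlda2. Grb10, a growth-restraining adaptor, read 8.18 and 9.32 against 5.98 and 6.59, a difference of -2.47 ± 0.47 that was not called (adjusted p = 0.0696).

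Of 22 measured extracellular matrix genes of fibroblasts and mesenchyme 4 fell and 1 rose. The list as a whole was balanced, with 12 positive and 10 negative differences, a median of 0.08, and 6 higher and 6 lower genes both in the fit of 8 arrays and at an unadjusted p under 0.05. Beside Pcolce the falls were the chains of collagen I, Col1a1 at 7.73 and 7.37 against 6.24 and 6.32 and Col1a2 at 9.06 and 8.71 against 7.73 and 7.54, and the lectin Lgals1 at 12.16 and 12.09 against 11.24 and 11.16. The second probe set of Col1a1 differed by -0.05. The rise was that of Ccn2, a secreted target of Yap1 and TGF-beta, from 8.59 and 8.54 to 11.27 and 10.53. The mean of the 6 measured fibroblast markers, which include both collagens, was lower too, as given above, and its part in these falls was not tested. Of 20 contractile genes Cald1 and Cnn2, both actin regulators, rose by 1.29 ± 0.16 and 1.00 ± 0.10, and 0 fell. Of 14 endoderm and basement membrane genes the laminin chain Lamc1 rose by 0.67 ± 0.08 and Amn fell by 0.87 ± 0.10. In that list 12 of 14 differences were positive, the median was 0.31, and the fit of 8 arrays called 6 higher and 1 lower.

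Lysosome and autophagy genes mostly had positive differences. Of 31 measured 25 had a positive difference, 3 rose, 0 fell, and the median was 0.30. Over all genes 3889 of 7181 differences were positive and 3.83% rose. In the fit of 8 arrays 15 of the 31 were higher and 0 lower. Sqstm1, the autophagy receptor p62, read 10.29 and 10.28 against 11.93 and 12.01, a rise of 1.69 ± 0.08 (adjusted p = 0.026), while its other probe set differed by 0.13. Lamp2, a lysosomal membrane protein, read 8.95 and 8.77 against 9.84 and 10.04, and Glb1, the lysosomal beta-galactosidase, 8.90 and 9.06 against 9.88 and 10.15. Of 28 genes of oxidative stress and glutathione, Mgst1 rose by 0.90 ± 0.11 and Hmox1, the heme oxygenase, fell by 1.13 ± 0.12. Of the 28, 19 had a negative difference, and the fit of 8 arrays called 2 higher and 8 lower. Of 33 oxidative phosphorylation genes 1 fell, Atp5g1, by 0.88 ± 0.12. Of 18 genes of FGF signalling and its feedback 1 fell, the ERK-responsive factor Etv4, by 1.29 ± 0.14. Most of that list went the other way, with 12 of 18 differences positive and a median of 0.23. In the fit of 8 arrays and at an unadjusted p under 0.05 alike, 5 of the 18 were higher and 2 lower. Of 24 genes of Kit, Notch and ephrin signalling 1 rose, the adaptor Irs1, by 0.71 ± 0.09, and Kitl, the ligand of Kit, read 9.28 and 9.26 against 11.08 and 10.39 without being called (adjusted p = 0.0613). By limma, 0 genes were called among 28 of hypoxia and glycolysis, 22 of BMP, Nodal and TGF-beta, 17 of neuroectoderm, 10 of Wnt, 8 of retinoic acid and 3 of mesoderm. At an unadjusted p under 0.05 these 6 lists held 2, 4, 0, 5, 0 and 0 higher genes and 2, 0, 4, 1, 4 and 0 lower ones, and in the fit of 8 arrays 2, 3, 0, 5, 0 and 0 higher and 2, 1, 4, 1, 4 and 0 lower. The hypoxia element TACGTG was in 5.36% of the promoters of genes that rose, 5.15% of those that fell and 4.69% of all measured.

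**Figure D4:**
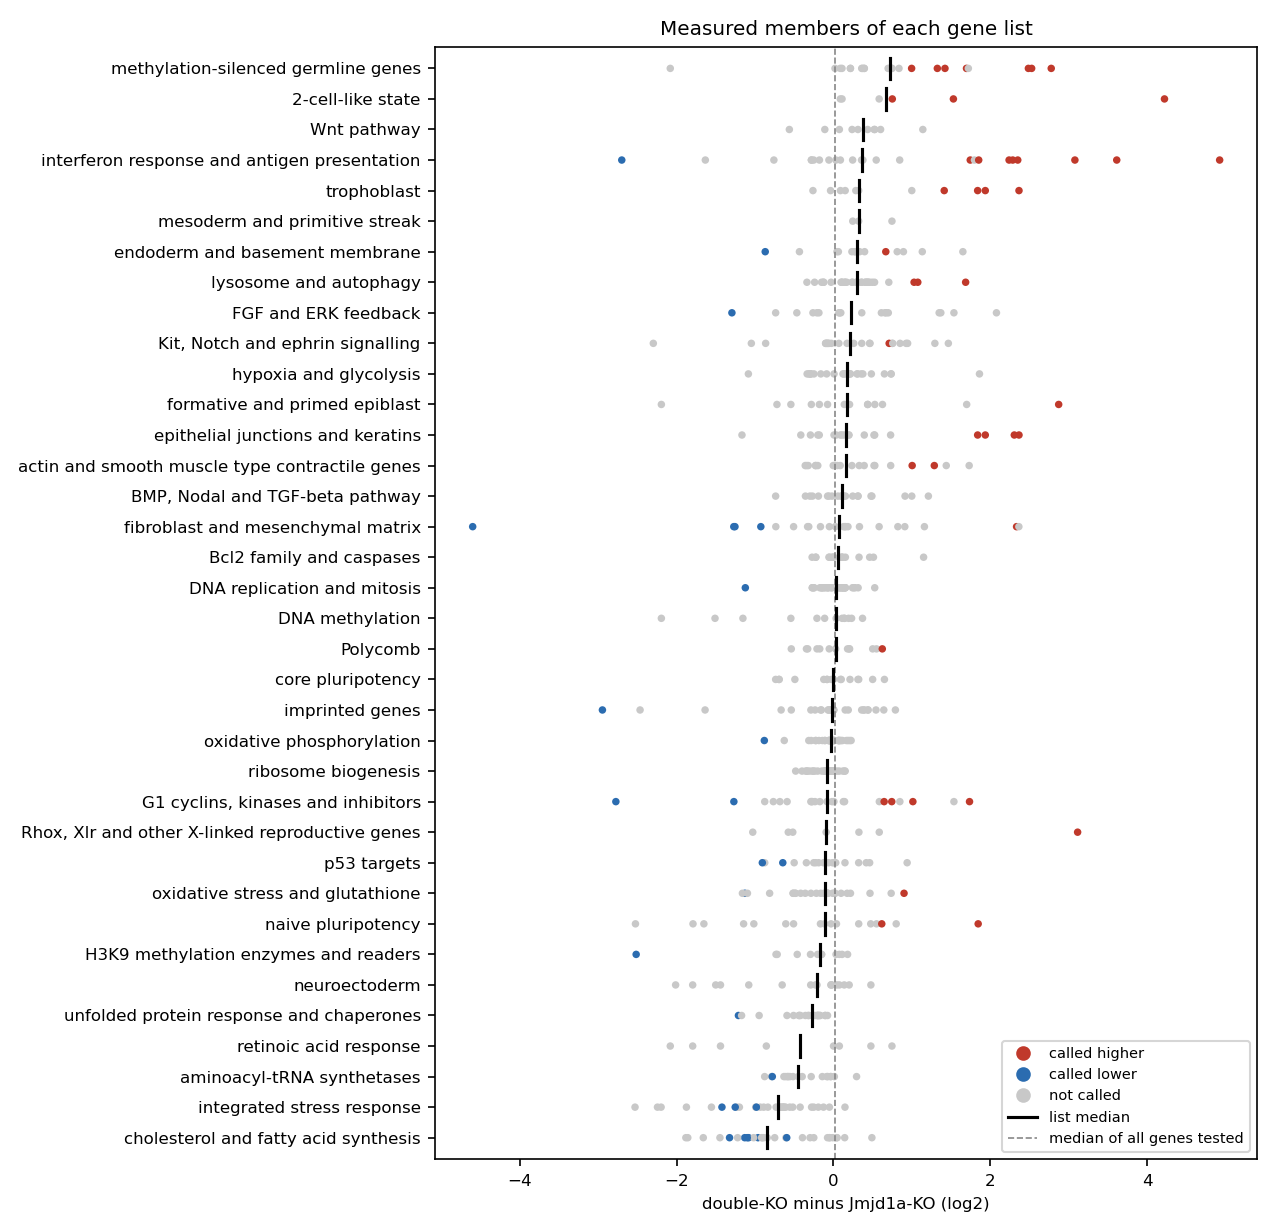
Difference between double-KO and Jmjd1a-KO (log2, x axis) of every measured member of 36 gene lists, ordered by the list median (black bar). Points are genes, red for called higher, blue for called lower and grey for not called, and the dashed line is the median of all 7181 genes. Germline genes (median 0.72) stand at the top and cholesterol and fatty acid synthesis (median -0.845) at the bottom.

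Loss of Jmjd1b in cells that kept Jmjd1a gave a different profile. By their labels those cells came from mice and the Jmjd1a-deficient ones are named as a cell line. Jmjd1a status and cell origin therefore cannot be told apart in what follows. The difference Jmjd1b-KO minus WT, from 4 arrays not shared with the comparison above, had a Pearson r of 0.03 and a Spearman rho of 0.00 with it across the 7181 genes. These are descriptions, since genes are not independent replicates. The 275 genes that rose in the Jmjd1a-deficient background had a median change of 0.16 after Jmjd1b loss alone, 183 had the same sign there, and 54 reached at least 50% of the change. The 126 genes that fell had a median of 0.01 there, 62 had the same sign and 18 reached that share. In a test of the difference between both changes over all 8 arrays, 1894 genes (26.4%) were called, 1015 positive (14.1%) and 879 negative (12.2%). Of the 275 rises 217 were among the positive ones and 0 among the negative, and of the 126 falls 99 were among the negative and 2 among the positive. The rises and falls were chosen on one term of that same difference, so these counts are a description and the sign is largely set by the choice. The 2 falls among the positive ones were Col1a1 and Col1a2, which differed by -2.01 and -3.74 after Jmjd1b loss alone, against -1.27 and -1.26 here. With 1 array left out of that test the count ran from 629 (without Jmjd1b-KO replicate 2) to 2562. It was 722 without Jmjd1b-KO replicate 1, 839 and 834 without WT replicate 1 and 2, and 1186 without double-KO replicate 1.

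Named groups differed in how far the change was shared. Gbp2 differed by -0.81 after Jmjd1b loss alone against 4.93 in Jmjd1a-deficient cells, and Irf1 by 0.08 against 3.61. For germline genes both changes pointed the same way, with list medians of 0.83 after Jmjd1b loss alone and 0.72 here. Dazl differed by 1.32 and 2.78, Stk31 by 1.38 and 1.70, and Sycp3 by 1.37 and 1.00. Of the 23 germline genes 6 had a positive and 4 a negative difference between both changes that was called. The list medians of cholesterol and fatty acid synthesis were 0.28 after Jmjd1b loss alone and -0.845 here, with 19 of 29 called negative in the test of the difference. For the integrated stress response they were 0.34 and -0.705, with 22 of 30 called negative. Kdm3b itself differed by -2.85 and -2.52, and that difference was not called.

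**Figure D5:**
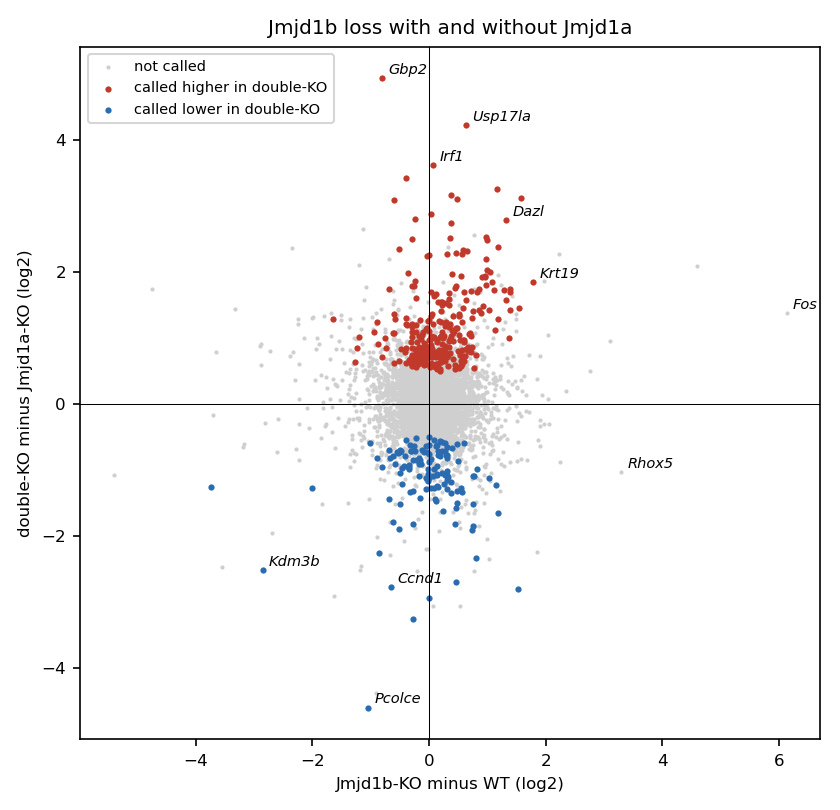
Change after Jmjd1b loss in cells with Jmjd1a (Jmjd1b-KO minus WT, x axis, log2) against that in Jmjd1a-deficient cells (double-KO minus Jmjd1a-KO, y axis, log2), 1 point a gene. Red and blue points are genes called higher and lower on the y axis. Irf1 lies at 0.08 on the x axis and 3.61 on the y axis, while Kdm3b lies low on both.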

How the data were processed

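RNA of 8 mouse embryonic stem cell samples was measured on Affymetrix arrays, 1 per sample, 2 per group. The deposited table holds the authors' log2 values per probe set. R 2.7.2 is named in the submitters' processing notes. How the signals were background-corrected, normalized and summarized is not given in the sources. The log2 unit was inferred from the range of the deposited values. Probe sets were named through GEO's platform annotation: 34958 had 1 gene symbol, 932 several and 9211 none, and the last 2 kinds were left out, with 364 and 733 varying probe sets among them. The members and the 36 gene lists were chosen with earlier results of these data known.

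limma 3.58.1 in R 4.3.3 (lmFit, eBayes, no covariates) was fitted to the 4 arrays over 7181 genes, with 2 residual degrees of freedom, 1.82 prior degrees of freedom and Benjamini-Hochberg adjustment at 0.05. Errors are the model's standard errors. The change was compared with that after Jmjd1b loss alone by an interaction contrast over all 8 arrays (4 residual and 1.91 prior degrees of freedom). The number of arrays limits the precision. The scripts were tested on simulated data. Genes named by rule were Kdm3a, Kdm3b, the 12 largest called rises and falls without overlap whose higher mean reached 6.812 (the median of the array medians), and up to 6 called genes of each list, or any member of lists with up to 3 called. Oasl2, Psmb8, Igtp, Ifitm1, Ifitm2, Sycp3, Stra8, Stag3, Hmgcs1, Sqle, Srebf1 and Srebf2 fall outside it and were chosen after their values were seen, as were the Y-linked genes. Promoter windows came from RefSeq on GRCm38.p6 and matched 5825 of the 7181 genes by symbol. Only the motifs TGATGNAAT, TCACNCCAC and TACGTG were planned. Alternatives covered the arrays in the fit, probe set choice, filters, normalization, variance moderation, thresholds and left-out arrays.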

Additional observations from a re-analysis of the deposited data

Results flagged for a closer look

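The change after Jmjd1b deletion in Jmjd1a-deficient cells differed from that after Jmjd1b loss alone, by the interaction contrast over all 8 arrays with Benjamini-Hochberg adjusted p-values of at most 0.0404, for 68 of the 77 genes named by rule. Those genes were mostly chosen on the first of these changes, which is part of the contrast, so the count is a description. The values below are the first change minus the second, on the log2 scale, and no explanation was tested.

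Among interferon-inducible genes and their presentation partner Tapbp the difference was 5.73 for Gbp2, 3.69 for Irgm1, 3.54 for Irf1, 2.87 for Gbp3, 2.78 for Nmi and 1.83 for Tapbp, against -3.16 for Ifitm3. For germline and reproductive genes it was 2.09 for Tex19.1, 1.54 for Slc25a31, 1.54 for Cox7b2, 1.49 for Mael, 1.45 for Dazl, 0.92 for Sycp1 and 0.57 for Ddx4. These were named for their rise, and over the 23 measured germline genes 6 positive and 4 negative differences were called. For genes of the 2-cell-like state it was 3.59 for Usp17la, 1.23 for Tcstv1 and 0.75 for Zfp352. Enzymes of lipid synthesis were negative, with -1.36 for Pmvk, -1.17 for Sc5d, -1.13 for Fasn, -1.04 for Scd2, -0.87 for Acaca and -0.60 for Idi1. So were stress response, tRNA charging and secretory genes, with -1.81 for Psph, -1.47 for Xbp1, -1.39 for Herpud1, -1.26 for Psat1 and -1.07 for Nars.

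For cell cycle genes the difference was -2.12 for Ccnd1, -1.35 for Ccne1 and -1.08 for Rrm2, against 1.16 for Cdkn1b, 0.94 for Rbl1, 0.87 for Cdkn2a and 0.65 for Cdkn2b for the inhibitors, and the p53 target Ccng1 stood at -0.73. Among cytoskeletal and epithelial genes it was 2.93 for Cald1, 2.21 for Cnn2, 1.66 for Dsp and 0.97 for Krt18. Matrix genes gave 2.49 for Col1a2, 1.76 for Ccn2, 0.92 for Lamc1 and 0.74 for Col1a1, against -3.56 for Pcolce and -0.58 for Lgals1.

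Of the remaining positive values, 3.81 for Rpl39l, 3.05 for Ptpn13, 2.85 for Fgf5 and 2.61 for Vwa5a were the largest in size, followed by 1.70 for Lamp2, 1.51 for Irs1, 0.86 for Sqstm1, 0.79 for Rnf2, 0.77 for Klf2 and 0.74 for Il6st. The remaining negative values were -4.32 for Plekha4, -3.15 for Eprn, -2.99 for Plac8, -2.94 for Phlda2, -2.65 for Gtsf1l, -2.60 for Car14, -2.17 for Hmox1, -1.41 for Ddc, -1.38 for Ak7, -1.37 for Amn, -1.25 for Etv4 and -0.89 for Atp5g1.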

How the results depend on the processing

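None of the 76 called genes named by rule changed direction in the alternatives run. Several of these keep the same group differences, and the genes were mostly chosen for large ones, so a reversal was hardly possible. Of the 76, 0 stayed called with the replicate number as a block over the 4 arrays. With the unvarying probe sets kept, 2 did. The 401 calls became 2155 in the fit of all 8 arrays, 1079 with array weights in that fit, 18 of 18194 genes with the unvarying probe sets kept (2 shared with the 401), 2 at an adjusted p under 0.01 and 200 with a change of at least 1. The other planned settings (probe set choice, span of 0.1, quantile normalization, centring, a filter on low means, robust moderation) gave 335 to 594. Leaving out any 1 of the 4 arrays gave 0 in each case. In the fit of 8 arrays the counts ran from 1244 (without double-KO replicate 1) to 2219 with 1 array left out, and all 76 stayed called in each of these fits. The interaction count of 1894 ran from 629 to 2562 with 1 array left out, and was 1186 without double-KO replicate 1 and 629 to 839 without any 1 WT or Jmjd1b-KO array. The cause of these shifts was not tested, beyond the fewer samples. The labels do not pair the replicates. Replicate differences of the 4 groups correlated between -0.121 and 0.218 over genes, and at -0.121 between Jmjd1a-KO and double-KO. The Y-linked genes given above nevertheless split both of these groups by replicate number. Whether the numbers pair the arrays was not tested. With the replicate number as a block, 0 genes were called over the 4 arrays (1629 at an unadjusted p under 0.05), 1895 over the 8 arrays with all 401 among them, and 1610 for the interaction. Crossing the numbers over the 4 arrays, chosen after seeing the data, gave 465 calls, 282 shared. Signal over background was not analysed here, and 33 rises and 10 falls had their lower group below the lower quartile of the arrays (6.341 to 6.346).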

Other observations

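The called genes below lie outside the lists and were picked after their values were seen, so they are examples and show no direction of a group. Of interferon-inducible genes, Trim12c read 6.73 and 6.50 in Jmjd1a-KO and 9.54 and 9.18 in double-KO, a rise of 2.74 ± 0.17 (SE, adjusted p = 0.026 by limma), and its paralogs Trim12a and Trim30a rose by 1.24 ± 0.13 and 1.36 ± 0.18. Zbp1, a sensor of Z-form nucleic acid, rose from 6.29 and 6.34 to 8.17 and 7.94, near its WT mean of 8.08. The ADP-ribosyltransferases Parp9, Parp12 and Parp14 rose by 1.79 ± 0.20, 1.49 ± 0.20 and 1.54 ± 0.19. Erap1, which trims peptides for MHC class I, rose by 1.55 ± 0.22, and Psme1, a proteasome activator subunit, from 10.56 and 10.57 to 11.71 and 11.48. The kinase Jak2, which carries cytokine signals, rose by 1.03 ± 0.08, although its other probe set differed by 0.25. Irgm2 and Herc6 rose by 1.36 ± 0.16 and 1.03 ± 0.12.

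Other examples are known from germ cells or the piRNA pathway. Gpat2 read 6.87 and 6.48 against 8.60 and 8.59, and Gtsf1, a partner of piRNA effectors, 7.35 and 7.30 against 9.17 and 9.07. Rbm44 rose by 1.60 ± 0.16 and Rnf17 by 1.42 ± 0.11, the latter with 0.18 on its other probe set. The synapsis genes Syce3, Terb2 and Tex12 rose by 1.12 ± 0.13, 0.96 ± 0.08 and 0.94 ± 0.10, Nlrp14 by 0.96 ± 0.11 and Tex19.2 by 0.72 ± 0.09. Pnldc1, the nuclease that trims piRNAs, fell, from 8.01 and 8.24 to 7.28 and 7.34. Prdm1, a transcription factor of primordial germ cells, rose from 7.32 and 7.23 to 9.11 and 8.62. Tasor, the scaffold of the HUSH silencing complex, fell by 0.64 ± 0.09, from 8.42 and 8.56 to 7.82 and 7.88.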
